A study of Mus musculus with 24 samples.

Results

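Respiratory complex I is represented in the deposited table by 50 entries of 25965, of which 38 encode subunits and 12 encode assembly factors. Entries whose symbol starts with Nduf, together with Acad9, Ecsit, Timmdc1 and Nubpl, were taken: 45 were found by symbol and 5 by gene ID under an older symbol. Complex I is the entry point for electrons from NADH into the mitochondrial respiratory chain. It passes them through a flavin and a chain of iron-sulfur clusters to ubiquinone and pumps protons across the inner membrane. Its subunits come from the nuclear and the mitochondrial genome and are joined in modules by assembly factors that do not stay in the finished enzyme. The mouse oocyte is known to rely on mitochondrial respiration, fed by pyruvate, for its ATP.

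The study sequenced the RNA of single, naturally ovulated mouse oocytes to ask whether raised anti-Müllerian hormone (AMH), a hormone of growing follicles, alters the transcripts of the egg. The transgenic females were Thy1.2-AMHTg/0, with AMH driven by a Thy1.2 promoter, and their controls were wild type. From 4 females per genotype 2 or 3 oocytes were used, and 1 female of either genotype shared each of 4 sequencing lanes. The values are those of 10 transgenic and 11 wild-type oocytes and of 1 kit control RNA, whose tissue the labels do not give; 1 more transgenic oocyte of lane 1 and a library of water are not analysed here. The ages of the females are not in the sources used here, nor are the line's copy number, its insertion site and the hormone level each female had reached. The female is the replicate throughout (n = 4 against 4), and oocytes of 1 female share it.

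The oocyte libraries held 20441302 to 33341040 reads, and 3 reads, the limit that a count of 0 allows, stood for 0.0900 to 0.147 reads per 1000000 reads (RPM), which covers counting error only. The table holds 0 Amh reads in the transgenic and 1 in the wild-type oocytes, so Amh could not check the labels. Of 10 oocyte markers all were abundant (summed to 22904 ± 2789 RPM in transgenic females and to 21934 ± 5049 RPM in the wild type, against 17.1 RPM in the control RNA). The 20 cumulus and granulosa cell markers summed to 4.75 to 6.51 RPM in the transgenic and 6.53 to 15.3 RPM in the wild-type females, with 4 of them at 0 in all oocytes. Of these 20 only Col4a1 had a median over the oocytes of at least 1 RPM (3.72 RPM). The 7 blood markers summed to at most 0.247 RPM with 5 at 0, and the 6 oviduct markers to 3.57 to 4.95 and 3.55 to 4.44 RPM with 2 at 0. Of the oviduct markers only Epcam had a median of at least 1 RPM (3.54 RPM). The part of these other cells in the differences of complex I genes was not tested. Read counts per gene cannot tell fewer transcripts in the egg from a smaller share of all its transcripts.

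Promoter windows from RefSeq (GRCm38.p6), 300 bases from 250 before to 50 after a listed start, matched 43 of the 50 members, 33 subunits and 10 assembly factors. They were searched on both strands for letters that stand for factors known at nuclear genes of the respiratory chain. The letters AAGATGGC, a core of the YY1 motif, lay in the windows of 8 members (18.6%), against 5.66% of 8494 tested genes with a window and 3.19% of 27025 genes in the table. In these 8 windows the letters lay on the gene's own strand, 11 to 39 bases after the start, and in 7 of the 8 their ATG is an annotated start codon, the exception being Ndufaf8. Over all promoter windows in the table, 284 matches lay on the gene's strand in the 50 bases after the start and 283 in the 250 bases before it. On the opposite strand 89 and 271 matches lay in these stretches of unequal length. The stretch around the letters is shown for these members because, of the letters searched, these had the highest share relative to the tested genes. Capitals mark the searched letters.

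Ndufs6: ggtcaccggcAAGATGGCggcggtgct
Ndufs4: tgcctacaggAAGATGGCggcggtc
Ndufs7: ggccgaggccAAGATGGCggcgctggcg
Ndufa3: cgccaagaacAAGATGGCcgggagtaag
Ndufa9: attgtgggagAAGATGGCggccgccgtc
Ndufb8: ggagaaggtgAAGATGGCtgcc
Ndufc1: cctgcggaacAAGATGGCgccgtccgta
Ndufaf8: ggcagggcccAAGATGGCggcgccctcg

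GCGCATGC, a core of the motif of nuclear respiratory factor 1 (NRF1), was found in 5 members (11.6%), against 6.52% of tested genes. TGACCTTG, the letters of estrogen-related receptors, was found in 1 member (2.33% against 1.21%). GGGCGG, read by SP and KLF factors, was found in 23 members (53.5% against 67.1%), CCAAT in 16 (37.2% against 43.9%) and TATAAA in 4 (9.3% against 8.99%). GGGCGG was found in 8 of 10 assembly factor windows and in 15 of 33 subunit windows. These matches are descriptions of letters, and binding was not measured. The windows of 3 members are printed from 250 bases before to 30 after the start: the subunit with the smallest p in the comparison of genotypes (Ndufa5, chr6:24527661-24527940, minus strand, the more upstream of 2 listed starts), the member with the shortest transcript (Ndufa6, chr15:82354262-82354541, minus strand) and the member with the longest (Ndufaf4, chr4:24897833-24898112, plus strand). Capitals mark the searched letters on either strand.

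Ndufa5: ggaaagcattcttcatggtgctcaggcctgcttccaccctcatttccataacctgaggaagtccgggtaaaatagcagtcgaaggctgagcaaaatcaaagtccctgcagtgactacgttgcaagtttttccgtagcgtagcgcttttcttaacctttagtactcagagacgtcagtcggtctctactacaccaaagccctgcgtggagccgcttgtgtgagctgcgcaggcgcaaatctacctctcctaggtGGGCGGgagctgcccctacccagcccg
Ndufa6: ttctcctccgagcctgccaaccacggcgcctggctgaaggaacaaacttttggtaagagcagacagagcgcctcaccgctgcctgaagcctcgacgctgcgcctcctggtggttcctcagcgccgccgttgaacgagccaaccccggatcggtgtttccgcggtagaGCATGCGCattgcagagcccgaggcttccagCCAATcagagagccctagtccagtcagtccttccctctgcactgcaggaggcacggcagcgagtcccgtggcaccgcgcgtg
Ndufaf4: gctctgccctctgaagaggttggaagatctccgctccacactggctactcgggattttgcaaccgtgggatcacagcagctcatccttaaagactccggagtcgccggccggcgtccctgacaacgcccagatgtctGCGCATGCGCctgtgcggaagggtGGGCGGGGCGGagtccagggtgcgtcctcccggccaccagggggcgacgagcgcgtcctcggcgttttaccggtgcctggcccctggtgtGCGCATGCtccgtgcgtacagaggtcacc

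The Ndufa5 stretch holds only GGGCGG, 4 bases after its start. That of Ndufa6 holds the NRF1 letters on the opposite strand 83 bases before the start and CCAAT 52 bases before it. That of Ndufaf4 holds the NRF1 letters at 113 and, on the opposite strand, 111 bases before the start, overlapping each other, and again 2 bases after it, with an overlapping pair of GGGCGG 89 and 84 bases before it.

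Of the 50 members, 44 (35 subunits and 9 assembly factors) reached a mean of 1 RPM over the oocytes and were tested. The filter left out 3 assembly factors and 3 subunits. Ndufaf1, which belongs to the complex that builds the membrane arm, had 40 reads in 5 of the 21 oocytes, at most 0.747 RPM, and 25.7 RPM in the control RNA. Timmdc1, a membrane factor of the same complex, had 211 reads in 15 oocytes, and Ndufaf3, which works with Ndufaf4 on the quinone-side arm, had 334 reads in 18 oocytes against 37.5 RPM in the control RNA. Ndufa7, a subunit of the NADH-oxidising arm, had 273 reads in 16 oocytes with a highest value of 3.66 RPM, against 74.4 RPM in the control RNA. Ndufb4, a membrane-arm subunit, had reads in all 21 oocytes, 499 in total, and Ndufa4l2, a relative of Ndufa4, had 3 reads in 2 oocytes. Low read counts of these genes do not speak of their proteins, which were not measured.

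Levels within 1 enzyme were far from equal. Per kilobase of transcript, the tested subunits had a median of 9.56 RPM and the tested assembly factors 6.80 RPM, against 6.44 RPM for all 10987 tested genes. The filter was set on RPM, so a shorter gene had to reach a higher level per kilobase to be tested. Ndufa10, a membrane-arm subunit that resembles a nucleoside kinase, was the highest member at 140 RPM per kilobase, followed by Ndufa4 at 128, Ndufaf2 at 99.8, Ndufb6, an accessory subunit of the membrane arm, at 79.2 and Ndufaf4 at 65.3. Ndufa4 is named for complex I but is now counted with cytochrome c oxidase. The lowest tested subunits were the membrane-arm subunit Ndufc1 at 1.44, Ndufa12 at 1.92 and Ndufv1, which holds the flavin, at 1.94 RPM per kilobase. NDUFAF2 is known to hold the place that NDUFA12 takes in the finished enzyme, and their transcripts stood at 99.8 and 1.92 RPM per kilobase. Over the oocytes Ndufaf2 ran from 31.2 to 88.4 RPM (median 63.3) and Ndufa12 from 0.600 to 5.25 RPM (median 1.26), so the ranges did not overlap.

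**Figure D1:**
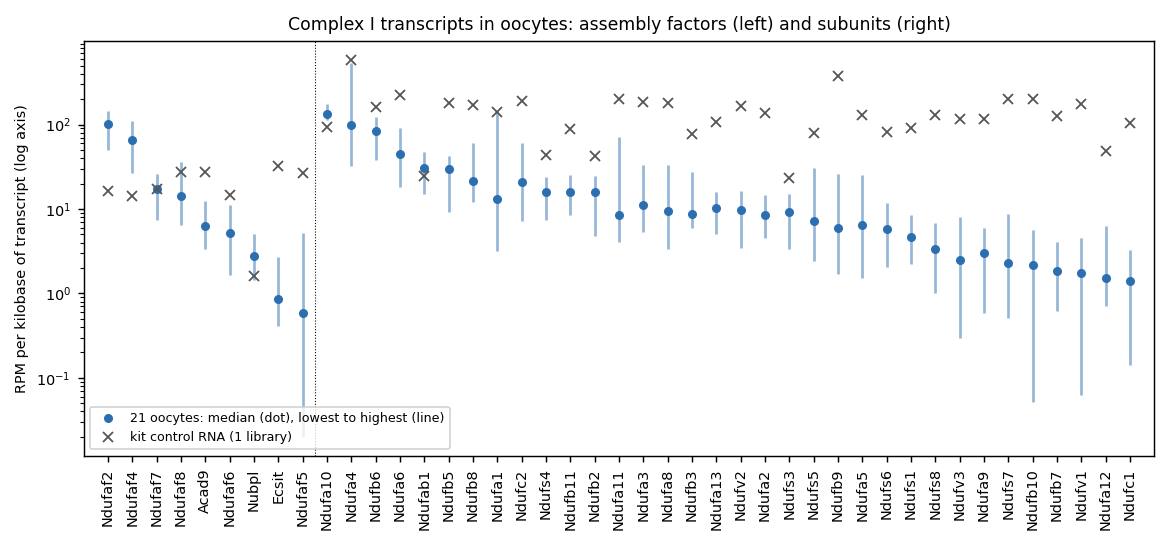
Levels of 43 tested members in RPM per kilobase of transcript on a log axis, assembly factors on the left and subunits on the right; dots are medians and lines the lowest to highest of 21 oocytes, crosses the 1 control RNA library. Ndufa10, Ndufa4 and Ndufaf2 are the highest, and the crosses of the subunits lie mostly above the lines and nearer to each other than the dots do.

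The subunits were less even in the oocytes than in the control RNA. Among the 36 subunits apart from Ndufa4 and Ndufa4l2, the SD of log2 RPM per kilobase was 1.70 to 1.98 in the 8 females and 0.93 in the control RNA. The highest subunit stood 9.62 to 26.8 times above the median subunit in the females, where it was Ndufa10 in each, and 2.89 times in the control RNA, where it was Ndufb9. The control RNA is 1 library, so this comparison has no replicate check on its side. It exceeded all 21 oocytes for 33 of the 35 tested subunits and 4 of the 9 tested assembly factors, against 39.7% of all tested genes. It lay below all 21 oocytes for Ndufa10, Ndufaf2 and Ndufaf4, 3 of 44 members, against 36.1% of all tested genes. Ndufaf4 held 96.4 to 396 RPM in the oocytes and 51.6 RPM in the control RNA, and Ndufaf2 10.2 RPM in the control RNA.

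Sister oocytes of a female resembled each other in these genes about as much as in others. The SD among sister oocytes on the log2(RPM + 1) scale had a median of 0.39 over subunits, 0.45 over assembly factors and 0.41 over all tested genes. Ndufa10 had the smallest, 0.106: its 21 values ran from 229 to 357 RPM with a median of 271 RPM. The largest was that of Ndufaf6 at 0.652, with 1.78 to 12.2 RPM.

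The comparison of genotypes asked which members differ in the egg when AMH is overexpressed. No member passed the threshold: limma on the means of females called 0 of 10987 genes at a Benjamini-Hochberg adjusted p under 0.05 (a percent called of 0), and the smallest adjusted p was 0.724. At an unadjusted p under 0.05 it gave 443 lower genes (4.03%) and 305 higher genes (2.78%), among them 11 lower members (9 subunits and 2 assembly factors) and 1 higher member, Acad9. With the lane as a block, which pairs the females, 19 members in place of 12 had an unadjusted p under 0.05 (9.36% of all tested genes in place of 6.81%), and still 0 genes were called. It was 6 members on leaving out the lane 1 transgenic female (3.67% of genes) and 7 on leaving out the lane 3 wild type (4.47% of genes). With any of the other females left out it was 10 to 15 members, with 598 to 1260 of all 10987 tested genes.

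Most members nonetheless had lower means in the transgenic females. Of the tested subunits 34 of 35 were lower and 1 was higher, and of the assembly factors 8 of 9 were lower and 1 was higher, against 52.2% of all tested genes. The median log2 difference (transgenic minus wild type, on the log2(RPM + 1) scale, which understates low genes) was -0.48 for subunits, -0.38 for assembly factors and -0.01 for all tested genes. In all 4 lanes 20 subunits and 5 assembly factors were lower, against 10.3% of tested genes, and 1 member, Acad9, was higher, against 7.97%. All 4 transgenic females lay below all 4 wild-type females for 6 members (Ndufa2, Ndufa5, Ndufa6, Ndufb9, Ndufb11 and Ndufv2), against 2.39% of tested genes, and above them for Acad9, against 1.64%. Members of 1 enzyme may vary together, so these counts carry no test of their own.

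**Figure D2:**
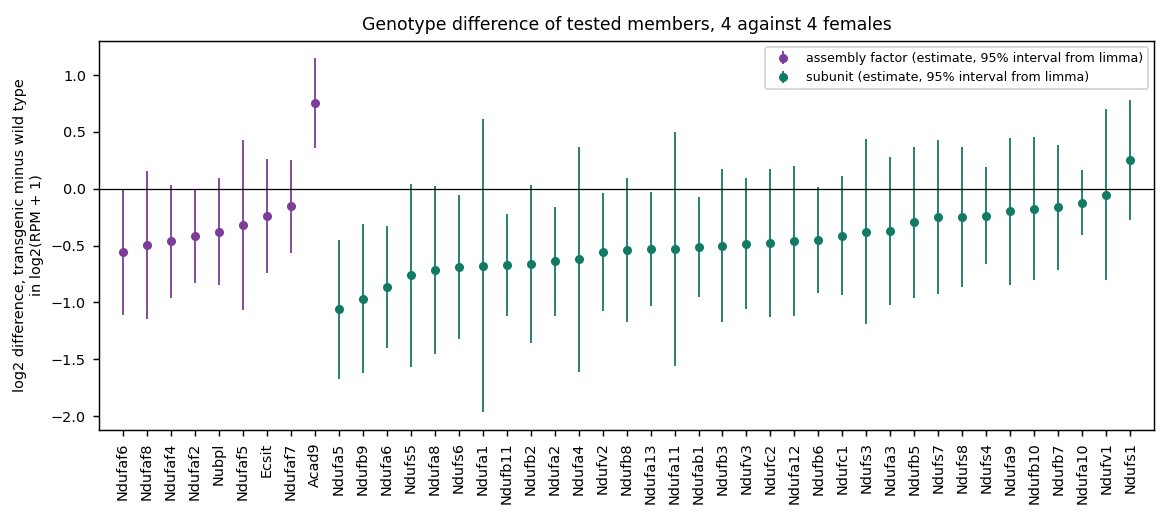
Log2 difference of 43 tested members (transgenic minus wild type, log2(RPM + 1), 4 against 4 females), assembly factors in purple and subunits in green, with 95% intervals from limma. All but Acad9 and Ndufs1 lie below 0, and most intervals reach 0.

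Transcript length moved with these differences. All tested genes were put in 10 classes of equal size by transcript length. The shortest class (165 to 994 bases) had a median log2 difference of -0.28 with 82.7% of genes lower, the next class (995 to 1451 bases) -0.17, and the 6 classes of longest transcripts 0.02 to 0.07. The median transcript was 782 bases for subunits, 1673 for assembly factors and 2643 for all tested genes, and 23 of the 35 subunits belonged to the shortest class. These 23 had a median of -0.50, all 23 were lower, and 19 lay below that class's median. In that class 8.82% of genes had all transgenic females below all wild-type females, and 5 of the 23 subunits did. Of all genes in that class 29.2% were lower in all 4 lanes, against 10.3% of all tested genes. At an unadjusted p under 0.05 in limma 15.1% of that class were lower, against 4.03% of all tested genes, and 6 of the 23 subunits were. With every gene centred on the median of its length class the medians were -0.22 for subunits and -0.16 for assembly factors, with 29 of 35 and 8 of 9 lower, and 6 members in place of 12 had an unadjusted p under 0.05 (5.47% of genes).

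**Figure D3:**
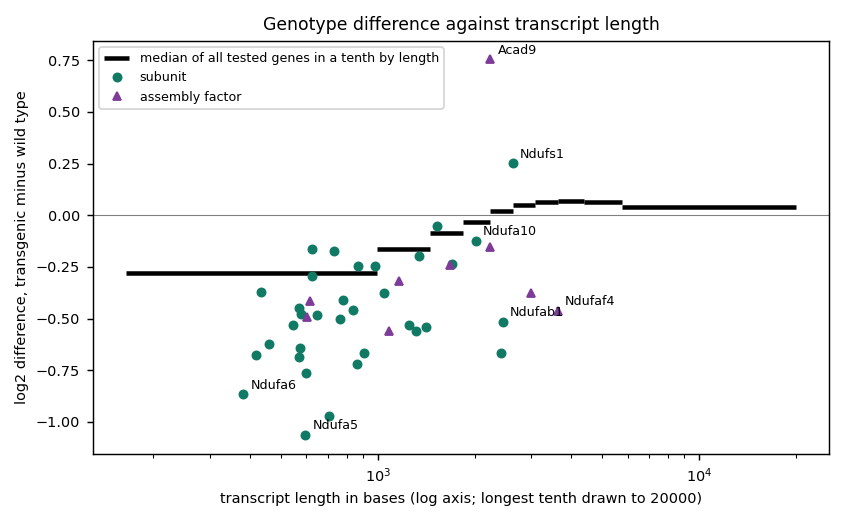
Log2 difference between genotypes against transcript length in bases (log axis) for 34 tested subunits (circles) and assembly factors (triangles); black bars are the medians of all tested genes in each of 10 length classes. The bars run from -0.28 in the shortest class to just above 0, and most circles lie below the bar of their own length.

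The subunits listed with the NADH-oxidising module of the peripheral arm had a median log2 difference of -0.48, with 8 of 9 lower. The list groups them by module and does not give each one's place in the enzyme. Ndufa6, a small subunit that binds the acyl carrier protein, ran from 6.93 to 23.5 RPM in the transgenic oocytes (median 12.2) and from 12.1 to 35.02 RPM in the wild type (median 22.7). Single oocytes overlapped, but the means of the transgenic females (7.79, 15.8, 17.0 and 10.4 RPM in lanes 1 to 4) all lay below those of the wild type (18.8, 22.6, 24.3 and 28.5 RPM). The log2 difference was -0.87 ± 0.25 (SE; limma, Benjamini-Hochberg adjusted p = 0.724). Ndufa2, a subunit with a thioredoxin-like fold, had 3.90 ± 0.93 RPM against 6.48 ± 0.79 RPM (SD over females, n = 4 each) and a difference of -0.64 ± 0.22. With centring by transcript length the difference of Ndufa2 was -0.38. Ndufv2, the iron-sulfur partner of Ndufv1, stood at 9.93 ± 3.00 against 14.7 ± 1.12 RPM, a difference of -0.56 ± 0.24 (-0.35 without the lane 1 transgenic female). Females of the groups did not overlap in either gene. Ndufv1 itself differed by -0.05 ± 0.35, within an interval of -0.81 to 0.70, and its sign depended on the alternative. Ndufs6, an accessory subunit of this list, was also below an unadjusted p of 0.05 in limma, at 2.43 ± 1.13 against 4.39 ± 1.54 RPM (-0.69 ± 0.29). It was named after its values were seen.

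Ndufs1, the large iron-sulfur subunit, was the one subunit with a higher transgenic mean. It ran from 10.3 to 22.0 RPM in the transgenic oocytes (median 12.3) and from 5.84 to 18.9 RPM in the wild type (median 12.4). The medians of the oocytes were nearly equal, and the log2 difference of 0.25 ± 0.24 was 0.02 on leaving out the lane 4 wild type, which stood at 6.77 RPM against 13.2 to 14.4 RPM in the other wild-type females. Its gene overlaps Gm11602 on the other strand, and no source used here says whether reads were counted by strand.

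The subunits around the quinone site had a median of -0.25 with 6 of 6 lower. Ndufa5, an accessory subunit of this arm, ran from 0.8998 to 5.98 RPM in the transgenic oocytes (median 2.29) and from 3.08 to 14.8 RPM in the wild type (median 5.76). The transgenic females lay at 1.15, 2.91, 3.91 and 2.23 RPM and the wild-type females at 5.33, 4.52, 6.80 and 9.48 RPM in lanes 1 to 4, with no overlap. Its log2 difference of -1.06 ± 0.28 had the smallest p of the subunits, with a 95% interval of -1.67 to -0.45 and an adjusted p of 0.724 (limma, Benjamini-Hochberg). Core subunits of this arm differed by smaller amounts: Ndufs3 by -0.38 ± 0.38, with lanes 2 and 4 at 0.13 and 0.46, and the cluster-bearing Ndufs7 and Ndufs8 by -0.25 ± 0.31 and -0.25 ± 0.29 (both 0.01 with centring by transcript length). Leaving out each female in turn gave -0.74 (without the lane 4 wild type) to -0.15 (without the lane 1 transgenic) for Ndufs3. It gave -0.40 (without the lane 2 wild type) to -0.02 (without the lane 3 wild type) for Ndufs7, and -0.43 (without the lane 4 wild type) to -0.07 (without the lane 1 transgenic) for Ndufs8. Over the 7 nuclear core subunits of both arms the median was -0.25, with 6 lower and 1 at an unadjusted p under 0.05. The difference between core and accessory subunits was not tested.

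The membrane-arm subunits had a median of -0.52, and 18 of 18 were lower. Ndufb9, which also binds the acyl carrier protein, had 3.31 ± 0.96 RPM and 7.97 ± 4.17 RPM in wild type, a log2 difference of -0.97 ± 0.30. Its transgenic females (2.40 to 4.51 RPM) lay below the wild-type females (4.87 to 14.1 RPM), and the difference was -0.69 with the lane 4 wild type left out. Ndufb11, encoded on the X chromosome, stood at 10.3 ± 2.61 against 16.7 ± 1.54 RPM, a difference of -0.67 ± 0.21, and its females did not overlap either. Ndufa13, also known as GRIM-19 and named after its values were seen, stood at 10.5 ± 2.96 against 15.2 ± 1.96 RPM (-0.53 ± 0.23), lower in all 4 lanes. Ndufa10, the member with the highest RPM, stood at 268 ± 16.3 against 293 ± 33.9 RPM (-0.12 ± 0.13), and Ndufb6 at 37.0 ± 10.6 against 49.9 ± 7.83 RPM (-0.45 ± 0.22). The scarce Ndufc1 differed by -0.41 ± 0.24 and Ndufa12, a subunit of the peripheral arm, by -0.46 ± 0.30. Without the lane 1 transgenic female Ndufb6 differed by -0.29 and Ndufc1 by -0.26, without the lane 2 wild type Ndufa10 by -0.05, and without the lane 4 wild type Ndufa12 by -0.21. Ndufab1, the mitochondrial acyl carrier protein, bound in both arms and also needed for lipoic acid synthesis, stood at 61.2 ± 13.7 against 86.9 ± 18.5 RPM, a difference of -0.51 ± 0.20, with overlapping females. The genes of Ndufa2, Ndufb5, Ndufb6, Ndufb11 and Ndufs3 overlap a gene on the other strand and Ndufb2, Ndufb8 and Ndufa13 one on their own, so some of their reads could be shared. Those other-strand genes had medians over the oocytes of 29.7, 92.7, 12.7, 0.75 and 3.03 RPM in that order. Those on the same strand had 22.9, 9.54 and 0.14 RPM. Only at Ndufa2 and Ndufb5 did this exceed the member's own median (4.84 and 18.7 RPM).

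**Figure D4:**
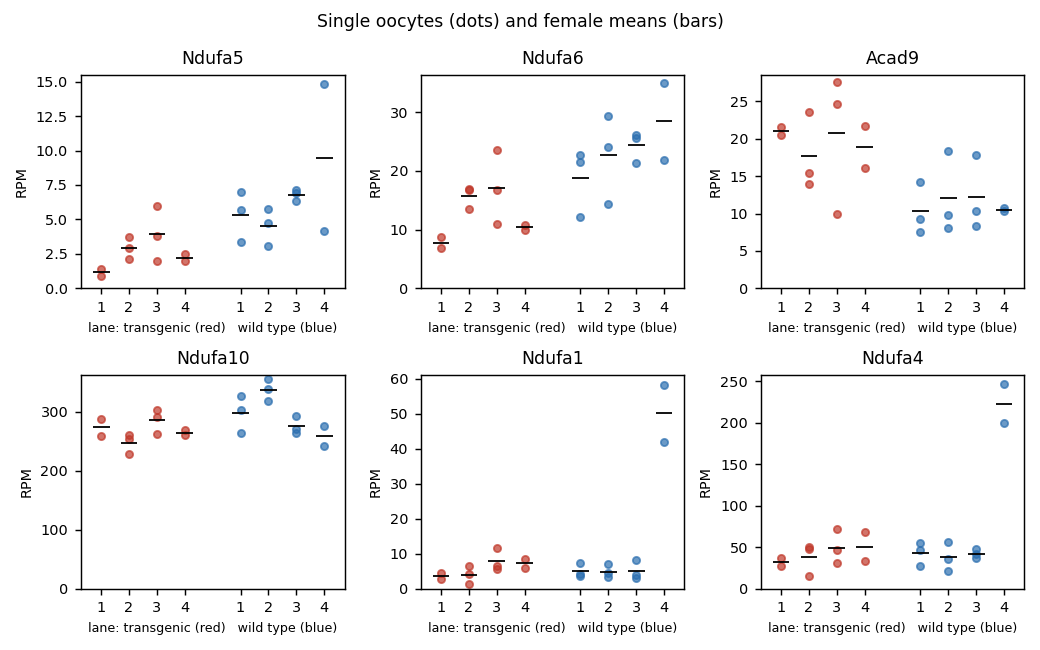
RPM of Ndufa5, Ndufa6, Acad9, Ndufa10, Ndufa1 and Ndufa4 in each oocyte (dots) with the mean of each female (bars), by lane, transgenic in red and wild type in blue. Female means do not overlap between genotypes for Ndufa5, Ndufa6 and Acad9, overlap for Ndufa10, and stand apart in the wild-type female of lane 4 for Ndufa1 and Ndufa4.

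The wild-type female of lane 4 stood apart in several of these genes. It exceeded the next highest female more than 2 times for 8 of the 44 members (Ndufa1, Ndufa4, Ndufa8, Ndufa11, Ndufaf5, Ndufb8, Ndufb9 and Ndufs5), against 2.29% of all tested genes, and no other female did so for any member. These genes were named after their values were seen. Ndufa1, a membrane-arm subunit encoded on the X chromosome, held 50.1 RPM in this female and 3.60 to 7.85 RPM in the other 7. Ndufa4 held 223 RPM in this female against 32.2 to 50.3 RPM in the others, and its log2 difference between genotypes of -0.62 ± 0.46 was -0.0038 without this female. The lane also held the control RNA, in which Ndufa1 was 59.0, Ndufa4 270 and Ndufs1 239 RPM. Ndufs1 was low in this female, and the transgenic female of the same lane held 7.20 RPM of Ndufa1 and 50.3 RPM of Ndufa4. The part of the lane in these values was not tested. Without this female the medians were -0.35 for subunits and -0.29 for assembly factors, with 30 of 35 and 6 of 9 lower.

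Acad9 was the member with the smallest p and the one with a higher transgenic value in all 4 lanes. Its protein belongs by sequence to the acyl-CoA dehydrogenases of fatty acid oxidation and serves in the assembly of the membrane arm together with the products of Ndufaf1, Ecsit and Timmdc1. It ran from 9.92 to 27.6 RPM in the transgenic oocytes (median 21.0) and from 7.54 to 18.4 RPM in the wild type (median 10.3). The means of the transgenic females (21.0, 17.7, 20.7 and 19.0 RPM) all lay above those of the wild type (10.3, 12.1, 12.2 and 10.5 RPM). The log2 difference of 0.75 ± 0.18 had a 95% interval of 0.36 to 1.15 and ranked 4 by p among 10987 genes, yet its adjusted p was 0.724 (limma, Benjamini-Hochberg). Within lanes it was 1.00, 0.56, 0.67 and 0.78. Ecsit, an adaptor in the same assembly complex, stood at 1.45 ± 0.39 against 2.04 ± 0.64 RPM, a difference of -0.24 ± 0.23 that was above 0 in 2 lanes and below 0 in 2. It was -0.14 without the lane 2 transgenic female and -0.13 without the lane 2 wild type, and Ndufaf1 and Timmdc1 were under the filter.

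The 6 tested Ndufaf genes all had lower transgenic means, with a median of -0.44. Ndufaf2 averaged 52.7 ± 13.0 and 68.3 ± 5.60 RPM, giving a log2 difference of -0.41 ± 0.19, with -1.06 in lane 1 and -0.03 in lane 4. Ndufaf4, the most abundant assembly factor by RPM, stood at 197 ± 72.4 against 258 ± 46.0 RPM, a difference of -0.46 ± 0.23. Without the lane 1 transgenic female the differences were -0.24 for Ndufaf2 and -0.25 for Ndufaf4. With centring by transcript length they were -0.15 for Ndufaf2 and -0.51 for Ndufaf4. Both ran in the same direction in all 4 lanes, but the females of the groups overlapped for Ndufaf4, and for Ndufaf2 by 1 wild-type female at 61.9 RPM against a transgenic female at 63.9 RPM. Ndufaf6, needed early in the assembly of the membrane arm, stood at 4.56 ± 1.10 against 6.89 ± 2.11 RPM (-0.56 ± 0.25). Ndufaf7, a methyltransferase, differed by -0.15 ± 0.19, Ndufaf5, a hydroxylase that acts on the Ndufs7 product, by -0.32 ± 0.35 at 0.72 ± 0.44 against 1.54 ± 1.56 RPM, and its stabiliser Ndufaf8 by -0.49 ± 0.30. The differences of Ndufaf5, Ndufaf7 and Ndufaf8 were 0.03, 0.01 and -0.23 on leaving out the lane 4 wild type, and that of Ndufaf8 was -0.32 on leaving out the lane 1 transgenic female. Nubpl, which delivers iron-sulfur clusters, differed by -0.38 ± 0.22.

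The classes were also compared by their mean in each female. Averaged over the 35 tested subunits, log2(RPM + 1) was 3.02 ± 0.26 in the transgenic and 3.48 ± 0.22 in the wild-type females, and over the 9 tested assembly factors 3.66 ± 0.16 and 3.91 ± 0.18. Females of the groups overlapped in both classes. The highest transgenic means were 3.293 for subunits and 3.82 for assembly factors, and the lowest wild-type means 3.286 and 3.76. The subunit mean minus the assembly mean was -0.64 ± 0.16 in the transgenic and -0.43 ± 0.05 in the wild-type females. The transgenic values ran from -0.81 to -0.45 and the wild-type values from -0.48 to -0.37, so the groups overlapped. The 9 assembly factors include Acad9, whose log2 difference was 0.75, while the other 8 were lower. The subunits had the shorter transcripts (median 782 against 1673 bases). With centring by transcript length the subunit median minus the assembly median was -0.06 in place of -0.11. The part of Acad9 in the contrast of the classes was not tested. Within lanes 1 to 4 the median log2 difference was -0.75, -0.25, -0.21 and -0.60 for subunits and -0.41, -0.20, -0.25 and -0.37 for assembly factors. Both classes were lower in every lane, and the assembly factors had the more negative median in lane 3. Summed, the subunits held 651 ± 86.7 RPM in the transgenic and 877 ± 150 RPM in the wild-type females, and the assembly factors 328 ± 84.3 and 409 ± 38.1 RPM. The subunit sums ran from 545 to 756 RPM in the transgenic females. In the wild type they were 793, 802 and 811 RPM in lanes 1 to 3 and 1102 RPM in lane 4. Ndufa4 is counted in these sums, at 223 RPM in the lane 4 wild type. The share of reads in listed genes was 93.4% ± 0.85 in the transgenic and 92.5% ± 0.61 in the wild-type females, and its part in these values was not tested.

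**Figure D5:**
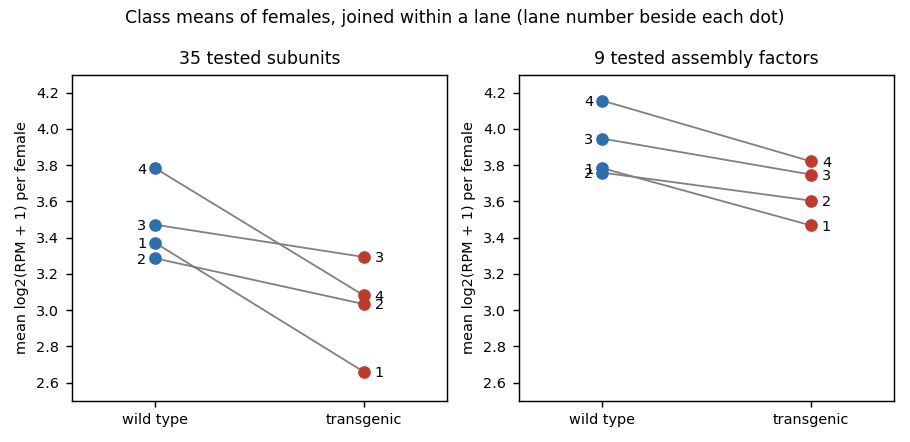
Mean log2(RPM + 1) over the 35 tested subunits (left) and the 9 tested assembly factors (right) in each female, lines joining the females of a lane, whose number stands beside each dot. Every line falls from wild type to transgenic. The subunit means run from 2.66 to 3.293 in the transgenic and from 3.286 to 3.78 in the wild-type females, so they overlap.

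Other genes of the chain were read from lists of the same enzymes. The mitochondrially encoded subunits of complex I had a median log2 difference of -0.10, with 5 of 6 tested lower and 0 at an unadjusted p under 0.05. Their lane medians were -0.84, 0.18, 0.06 and 0.07, so lane 1 alone lay below 0. mt-Nd6 stood at 192 ± 89.4 against 233 ± 59.9 RPM (-0.37 ± 0.26), and mt-Nd4 at 551 ± 271 against 612 ± 166 RPM (-0.25 ± 0.27). Without the lane 1 transgenic female these differences were -0.15 and -0.04. Of 6 tested assembly factors of complex I outside the set, 5 were lower with a median of -0.25, among them Dmac1 (-0.67 ± 0.28) and Dmac2 (-0.37 ± 0.22, and -0.21 without the lane 1 transgenic female). Among 6 tested relatives of Acad9 the median was -0.08 with 5 lower: Acadsb, of branched-chain amino acid breakdown, stood at 34.7 ± 9.50 against 23.3 ± 3.20 RPM (0.56 ± 0.21), and Acadl, of long-chain fatty acid oxidation, at 6.17 ± 0.80 against 8.80 ± 0.50 RPM (-0.50 ± 0.21). Genes that make ubiquinone or feed it with electrons had a median of -0.01, with 7 of 13 lower. Among them Dhodh, of pyrimidine synthesis, stood at 64.4 ± 5.92 against 49.96 ± 4.41 RPM (0.37 ± 0.15) and Coq7 at 12.3 ± 2.92 against 27.0 ± 20.0 RPM (-0.85 ± 0.36, and -0.42 without the lane 4 wild type).

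Complexes II, III and IV had medians of -0.22 (6 of 8 lower), -0.29 (8 of 12) and -0.56 (13 of 16), against -0.01 over all tested genes. The genes with the smallest p in these lists were as follows. Sdhd, a membrane anchor of succinate dehydrogenase, differed by -0.65 ± 0.30 (-0.41 without the lane 4 wild type), Uqcr10 and Uqcrh of the cytochrome bc1 complex by -0.99 ± 0.31 and -0.69 ± 0.26, and Cox6c and Cox8a of cytochrome c oxidase by -0.84 ± 0.25 and -0.57 ± 0.22. Without the lane 1 transgenic female Uqcrh differed by -0.46 and Cox8a by -0.37. The median transcript was 877 bases for the complex IV list and 949 for the complex III list, against 782 for complex I subunits. None of these genes passed the threshold of limma with Benjamini-Hochberg adjustment, and the complexes were not tested against each other.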

How the data were processed

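Per the labels' protocols, the RNA of single oocytes was amplified with SMART-Seq v4 and made into ThruPLEX libraries. Reads were trimmed with Trim Galore, checked with FastQC and aligned with HISAT2, and the builds GRCm39 and mm39 are named, per the submitters' processing notes; their versions, the counting tool, the annotation and the use of strand are given in no source used here. Coordinates in the table are those of GRCm38. The authors deposited log2 values, scaled within each library. The table is named RPKM, but its values are log2 RPM with 0.9 reads in place of 0: of 256342 values under 2000 reads, 100% lay within 0.02 of a whole read. The plan had named RPM, so no test changed. The main test used no count model, and voom on the recovered reads summed per female was run as an alternative only.

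RPM was recovered with genes without reads at 0. The 10987 genes whose mean over the oocytes reached 1 RPM were analysed as log2(RPM + 1). Sister oocytes were averaged, and limma 3.58.1 (trended eBayes, R 4.3.3) compared 4 against 4 female means in two-sided tests. Benjamini-Hochberg adjustment ran over all tested genes, at 0.05. The code was tested on simulated data. Levels per kilobase used the median length of protein-coding transcripts in GENCODE M21 (basic set). Symbols of 5 members were older names (Timmdc1 as 4930455C21Rik, Ndufaf5 as 2310003L22Rik, Ndufaf6 as 2310030N02Rik, Ndufaf7 as 2410091C18Rik and Ndufaf8 as 1810043H04Rik). The pseudogene Gm17257 was left out. Named members were all assembly factors, the 7 nuclear core subunits, the 6 other subunits with the smallest p, the 3 highest and 3 lowest per kilobase, those under the filter, and up to 2 genes per further list; 1 member that the rule names is not reported here, though it stays in all counts and medians. The members and lists were chosen with earlier results of these data known. The lane pairs the females by the labels: the correlation of lane mates, each taken as its deviation from the group mean, was -0.04, 0.0835, 0.342 and 0.317 in lanes 1 to 4. For transgenic and wild-type females of unlike lanes it ran from -0.3585 to 0.313. Alternatives were the lane as a block, oocytes fitted singly within females, other pseudocounts, filters and scalings, centring by transcript length, voom, and leaving out each female.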

Additional observations from a re-analysis of the deposited data

Results flagged for a closer look

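Within a genotype, members and class means were listed where 1 female lay far from the other 3. The measure was the gap to its nearest neighbour over the range of the group. For normally distributed values chance gives about 1 in 20 groups, and 8 of 92 groups met this. The rule was not run over all tested genes, so this count cannot show an excess among the members. All 8 came from the wild-type female of lane 4. Over all 10987 tested genes, that female exceeded the next highest female more than 2 times for 252 (2.29%). It was high for Ndufa1 at 50.1 RPM (the other wild-type females 4.84 to 4.96 RPM), Ndufa11 at 30.2 RPM (4.205 to 4.47 RPM), Ndufa4 at 223 RPM (37.6 to 42.7 RPM), Ndufb8 at 78.9 RPM (32.0 to 33.9 RPM) and Ndufs5 at 16.3 RPM (3.82 to 5.29 RPM). It was low for Ndufs1 at 6.77 RPM (13.2 to 14.4 RPM), Ndufs3 at 3.53 RPM (11.1 to 11.8 RPM) and Ndufs6 at 2.10 RPM (4.97 to 5.46 RPM). The cause was not tested.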

How the results depend on the processing

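Every tested member kept an adjusted p above 0.05 under each alternative that was run. Over all genes, limma called 12 genes when oocytes were fitted singly, females as a random effect and lanes as a replicate block, and 0 to 1 when each female was left out, the 1 on leaving out the lane 1 transgenic; none of these was a member. With the lane as a block on female means 0 genes were called and the pairing changed no call of a member. With centring by transcript length the median log2 difference was -0.22 for subunits and -0.16 for assembly factors, since short genes were centred on a negative median. Leaving out each female gave -0.58 to -0.34 for subunits (30 to 34 of 35 lower), -0.44 to -0.26 for assembly factors (6 to 8 of 9 lower) and -0.18 to -0.06 for their difference. With members found by symbol alone 4 of 5 tested assembly factors were lower, since fewer genes were counted; this alternative was added after the data were seen, as was leaving out Ndufa4 and Ndufa4l2. Among 730 values of 41 named genes, 719 kept their direction and 11 reversed it. Ndufv1 reversed to 0.0167 with oocytes fitted singly and the lane as a block, 0.0265 with a pseudocount of 0.1, 0.0301 with centring by length and 0.13 with voom, and to 0.0645, 0.0769 and 0.237 on leaving out the lane 1 wild type, the lane 2 transgenic and the lane 4 wild type (range over all females left out -0.38 to 0.24). Leaving out the lane 4 wild type, Ndufaf5 and Ndufaf7 reversed to 0.0265 and 0.0065 (lowest values on leaving out another female -0.51 and -0.27), and with centring by length Ndufs7 and Ndufs8 to 0.0140 and 0.0149; the cause of these reversals was not tested. With no filter on the mean, which brings in the 6 members under it, 36 of 38 subunits and 10 of 12 assembly factors were lower and 0 genes were called. At the depth of these libraries 3 reads stand for 0.0900 to 0.147 RPM.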
